A study of Mus musculus with 8 samples.

Results

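Short-term hematopoietic stem cells (ST-HSC) were set against the midpoint of the populations on either side of them, long-term hematopoietic stem cells (LT-HSC) and multipotent progenitors (MPP), to find genes that peaked or dipped in the middle population. The comparison used 8 of the 8 arrays in the series, namely 2 for LT-HSC, 3 for ST-HSC and 3 for MPP. For each gene, the mean of the LT-HSC arrays and the mean of the MPP arrays were averaged with equal weight and subtracted from the mean of the ST-HSC arrays. The result is called the midpoint difference and is in log2 units. Genes were represented by a probe set with exactly 1 symbol, and by the brighter one where there were several. Of 22180 such genes, 17576 reached the 25th percentile of signal and were tested.

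All 3 populations came from bone marrow taken from C57/Bl6 mice aged 8 weeks and were sorted as lineage-negative, Sca1+ and Kit+ cells. LT-HSC were CD48-, CD150+ and CD34-, and ST-HSC differed from them in the gate by being CD34+. MPP were CD48+, CD150- and CD34+. No group carried a genetic change, and the series was designed to measure the chromatin remodeler Chd7 in these cells. The labels describe the arrays as untreated, but a protocol attached to all of them describes exposure to DMSO for 2 hours, transplantation into primary recipients for 1 year and into secondary recipients for 3 months. This conflict could not be settled, and it applies to all groups alike. The labels do not say that the arrays of a group came from separate animals or sorts, so each p-value reflects the spread of these arrays alone, which may be technical.

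LT-HSC are rarely in cycle and sustain blood formation for life, ST-HSC reconstitute it for a limited time, and MPP have lost long-term self-renewal. Along this path cells enter the cycle more often, so genes of cell division usually rise stepwise. Stem cells also share parts of their program with megakaryocytes, the cells that shed platelets, including the platelet integrin and glycoproteins. A gene that peaks in the middle population breaks the stepwise order. The midpoint difference can also be large for a gene that changes stepwise in uneven steps. The order of the populations therefore has to be read beside it.

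The genes that define the gates were examined first. Slamf1, which encodes CD150, measured 7.77 and 7.78 log2 in LT-HSC, 7.32, 7.25 and 7.46 in ST-HSC, and 4.93, 5.46 and 4.77 in MPP, in the order of the gate. Slamf1 passed the test with a midpoint difference of 0.92, but it is not a peak, since the LT-HSC arrays lay above ST-HSC. Cd34 measured 8.497 and 10.20 in LT-HSC, 9.55, 10.15 and 10.07 in ST-HSC, and 11.003, 10.85 and 10.92 in MPP, so the LT-HSC arrays, sorted as CD34-, overlapped the ST-HSC arrays. Cd48 spanned 5.92 to 6.63 in LT-HSC, 6.51 to 7.49 in ST-HSC and 6.65 to 7.84 in MPP, so its transcript did not separate the CD48+ population. Kit, the stem cell factor receptor, lay between 9.84 and 10.45 on all arrays. Neither Kit, Cd34 nor Cd48 passed the test, and the sign of each midpoint difference turned under some alternatives. Ly6a, which encodes Sca1, was not analysed here.

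The ST-HSC arrays had higher expression of cell division genes. Another 4 genes that rose came from the megakaryocyte-erythroid list, of which 27 were tested. Of 17576 genes, 134 passed at a limma adjusted p under 0.05, which is 0.762%, with 125 higher and 9 lower in ST-HSC. The 125 higher genes lay 1.67-fold to 3.64-fold above the midpoint, with a median of 2.28-fold. Of these, 91 belonged to 8 lists of cell division genes, 4 to the megakaryocyte-erythroid list and 27 to none of the 39 lists used. In the 8 lists 270 genes were tested, of which 33.7% were called higher, against 0.711% of all genes tested. At an unadjusted p under 0.05 the counts over all genes tested were 1012 higher and 485 lower.

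In 120 of the 125 higher genes each ST-HSC array lay above all 5 others. The calls were made on these same arrays, so this separation follows largely from the call. Of all tested genes 626 showed it, which is 3.56%. The usual order was LT-HSC lowest, MPP between and ST-HSC highest, found in 114 of the 125. Another 10 had MPP lowest and LT-HSC between, and Slamf1 had LT-HSC highest. The margin was wider on the LT-HSC side: 113 of the 125 also passed against LT-HSC and 16 against MPP. LT-HSC replicate 1, 1 of the 2 LT-HSC arrays, had the narrowest signal distribution. Its interquartile range over probe sets was 2.49 log2, against 2.73 to 3.06 on the other arrays, and its part in this margin was not tested. A stricter test took the larger of each gene's p-values against LT-HSC and against MPP where both had the same sign. By this test 0 genes passed in limma after adjustment, with a smallest adjusted p of 0.128, while 405 genes had an unadjusted p under 0.05, 328 above both populations (1.87% of genes tested) and 77 below both (0.438%). The count ran from 0 to 37 over the 18 alternatives, with 28 genes under array weights, all above both.

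The number of calls rested strongly on single arrays. Without ST-HSC replicate 3, 5 genes were called higher and 0 lower. Leaving out a single other array gave a higher count of 76 (LT-HSC replicate 1), 202 (LT-HSC replicate 3), 59 (ST-HSC replicate 1), 43 (ST-HSC replicate 2) or 57 (MPP replicate 3). All 134 called genes kept the sign of their midpoint difference under each of the 18 alternatives in which they were tested, where the filter at the 50th percentile tested 131 of them. Where the ST-HSC arrays lay beyond all others, leaving out arrays could not turn the sign. That held for 120 of the 125 higher and 5 of the 9 lower genes, so the kept signs are no separate support. Under all 18, 4 kept the call, namely Ska3, Ska1, Prc1 and Esco2. The replicate 1 arrays of both stem cell populations were the least like the rest, LT-HSC with a median correlation of 0.956 and ST-HSC with 0.968, against 0.976 to 0.985. With both left out, 30 genes were called higher.

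Genes of mitosis led the comparison. Over the 3 lists for the kinetochore, for entry into and exit from mitosis, and for motors, spindle and cytokinesis, 70 of 108 tested genes rose in limma and 0 fell (101 and 0 at an unadjusted p under 0.05), where 0.711% of all genes tested rose. Over all 17576 genes, 1012 were higher and 485 lower unadjusted. The median midpoint difference of these lists was 1.10, against -0.01 over all genes tested. In 91 of the 108 all ST-HSC arrays lay above the other 5, as in 3.56% of all genes tested. The median difference of these lists was 1.42 from LT-HSC and 0.80 from MPP. In bulk RNA, fewer cells of a type and less RNA per cell cannot be told apart, so these values do not say whether more cells were dividing or each held more of these transcripts. The count of 70 became 37 without ST-HSC replicate 1, 28 without ST-HSC replicate 2, 3 without ST-HSC replicate 3 and 38 without MPP replicate 3, while the median stayed between 1.02 and 1.21 when any single array was left out.

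Many promoters of these genes carry short elements through which cell cycle repressor and activator complexes act, the cell cycle homology region (CHR) bound by the DREAM and MMB complexes and the CCAAT box bound by NF-Y. The RefSeq promoters of 3 genes that rose are shown because each holds both elements within 150 bases around the start, on the GRCm38.p6 build, written 5′ to 3′ on the strand of the gene. Prc1 lies at chr7:80294321-80294470 on the plus strand, Ckap2 at chr8:22185800-22185949 on the minus strand and Bub1 at chr2:127831840-127831989 on the minus strand. Capitals mark the CHR (TTTGAA or TTCGAA) and the CCAAT box, each on either strand.
Prc1: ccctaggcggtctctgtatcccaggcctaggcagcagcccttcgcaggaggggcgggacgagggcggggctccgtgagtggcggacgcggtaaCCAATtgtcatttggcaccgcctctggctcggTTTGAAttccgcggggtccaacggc
Ckap2: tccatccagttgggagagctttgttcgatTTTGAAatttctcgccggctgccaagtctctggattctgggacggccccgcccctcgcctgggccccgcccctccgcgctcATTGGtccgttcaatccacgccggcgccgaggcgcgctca
Bub1: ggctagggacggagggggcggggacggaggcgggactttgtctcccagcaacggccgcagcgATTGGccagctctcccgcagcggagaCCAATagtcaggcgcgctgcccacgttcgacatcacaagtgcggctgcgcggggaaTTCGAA

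Over windows from 250 bases before to 50 bases after the start, a CHR was found in 58.0% of the 112 promoters of 106 genes that rose. The same letters occurred in 14.95% of the 16856 promoters of tested genes and in 19.2% of all 32851 promoters in the table. CHR and CCAAT together occurred in 43.8% of the promoters of genes that rose and in 5.95% of those of tested genes. Within the 3 mitotic lists, the CHR share was 71.0% of 62 promoters of genes that rose and 51.3% of 39 promoters of members that did not pass. The 17 promoters of genes that fell held a CHR in 3 cases. A match is a description of the letters and does not show that a factor binds there.

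The kinetochore joins chromosomes to spindle microtubules, and its checkpoint delays separation until all are attached. In this list 21 of 36 tested genes rose, with a median of 1.05. Ska3, a subunit of the SKA complex that tracks microtubule ends, had the largest difference of any tested gene. It measured 5.09 and 5.05 log2 in LT-HSC, 7.46, 7.37 and 7.58 in ST-HSC, and 6.64, 5.97 and 5.82 in MPP. The lowest ST-HSC array thus exceeded the highest of the others, MPP replicate 1. The midpoint difference was 1.86 ± 0.19 (SE), 3.64-fold, with a limma adjusted p of 0.00492.

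Ska1, another subunit of that complex, rose by 1.501 ± 0.15 (SE) and passed against both neighbours, with differences of 1.73 from LT-HSC and 1.27 from MPP. Bub1, a checkpoint kinase whose promoter is printed above, measured 5.75 and 6.13 in LT-HSC, 8.13, 7.94 and 8.01 in ST-HSC, and 7.33, 6.602 and 6.90 in MPP. The ST-HSC arrays of Bub1 spread over far less than their distance from MPP. Ndc80, Nuf2 and Knl1, the outer kinetochore proteins that hold the microtubule, rose by 1.44, 1.59 and 1.55. Sgo1, which protects cohesion at the centromere, rose by 1.30 and passed against LT-HSC (adjusted p 0.00883) and MPP (adjusted p 0.0396). Bub3 and Cenpa, among the members with the highest signal, did not pass, with midpoint differences of 0.56 and 0.58.

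For entry into and exit from mitosis, 23 of 34 tested genes rose, with a median of 1.04. Cdk1, the kinase that drives entry, measured 7.56 and 7.88 in LT-HSC, 9.44, 9.17 and 9.76 in ST-HSC, and 8.72, 8.11 and 8.55 in MPP, a midpoint difference of 1.37 ± 0.19 (SE). The ST-HSC and MPP arrays did not overlap, although Cdk1 passed against LT-HSC alone. Cdc25c, the phosphatase that activates Cdk1, rose by 1.58 and had the smallest p of the list (limma adjusted p 0.0061). Ube2c, which works with the anaphase-promoting complex to end mitosis, rose by 1.35, and the kinase Melk by 1.31. Cdkn3, a phosphatase that acts on cyclin-dependent kinases, rose by 1.57, but its LT-HSC arrays lay apart at 5.77 and 6.70. Ube2s, another enzyme of the anaphase-promoting complex, had a midpoint difference of 0.67 and an adjusted p of 0.0527, just outside the threshold.

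Motors, spindle and cytokinesis proteins had the highest median of the lists, 1.22, and 26 of 38 tested genes rose. Prc1, which bundles microtubules between separating chromosomes, measured 6.87 and 7.01 in LT-HSC, 8.70, 8.74 and 8.89 in ST-HSC, and 7.91, 7.50 and 7.62 in MPP. It rose by 1.47 ± 0.15 (SE) and passed against both neighbours, by 1.84 from LT-HSC and 1.10 from MPP. The ST-HSC arrays of Prc1 lay within 0.2 log2 of each other. Nusap1 and Ckap2, both bound to spindle microtubules, rose by 1.505 and 1.36.

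The mitotic kinesins Kif15 and Kif4 rose by 1.59 and 1.52. For Kif4 the limma adjusted p was 0.0382, and its LT-HSC arrays differed by more than a log2 unit, at 5.09 and 6.33. Depdc1a and Cep55, the latter needed for the final cut between daughter cells, rose by 1.72 and 1.64, and Hmmr, a spindle-associated hyaluronan receptor, by 1.56. Kif23, a kinesin of the central spindle, did not pass at 1.01 (adjusted p 0.122), and its LT-HSC arrays lay at 6.27 and 7.41. The microtubule polymerase Ckap5, at 0.66, did not pass either.

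**Figure D1:**
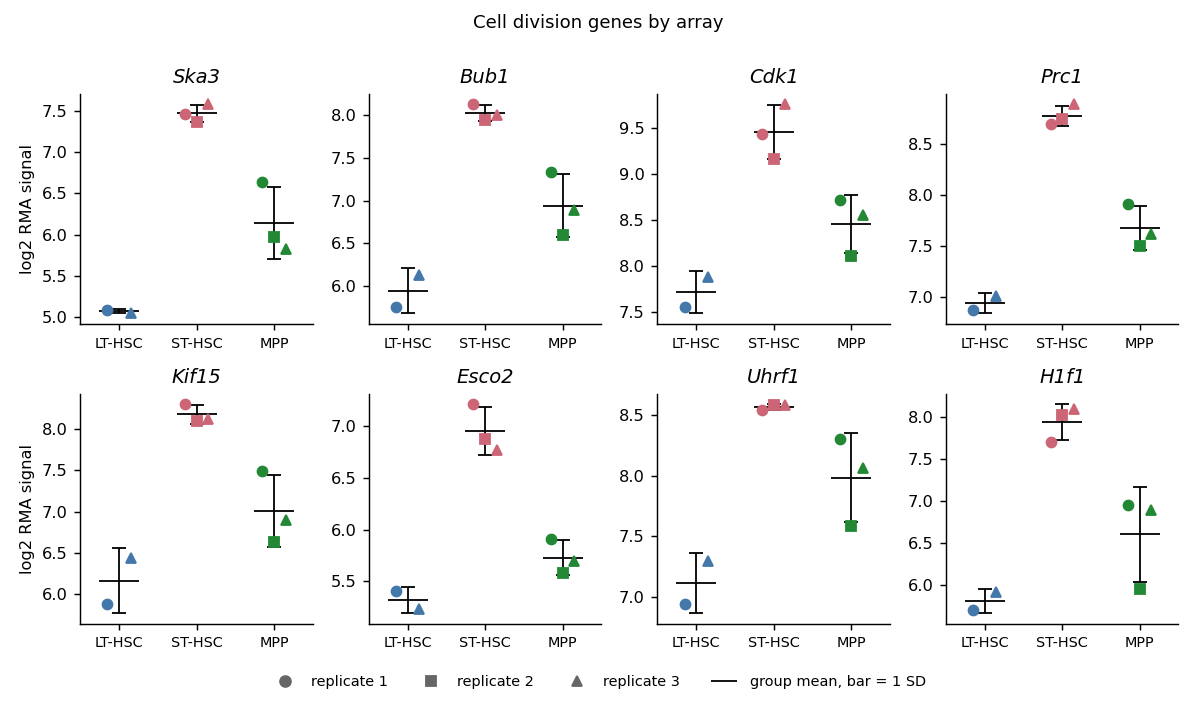
Log2 RMA signal of 8 cell division genes that rose in ST-HSC, by population on the x axis, with 1 point per array, the shape giving the replicate number, a long line at the group mean and bars of 1 SD (n = 2, 3 and 3). In each panel the 3 ST-HSC arrays lie above all others, and LT-HSC has the lowest mean; the y axes differ between panels and do not start at 0.

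Of the genes for chromosome condensation, cohesion and topology, 8 of 26 tested rose, where 0.711% of all genes tested rose. The list median was 0.43. Esco2, the acetyltransferase that closes cohesin rings in S phase, measured 5.41 and 5.23 in LT-HSC, 7.21, 6.88 and 6.77 in ST-HSC, and 5.91, 5.58 and 5.69 in MPP. Its midpoint difference was 1.43 ± 0.16 (SE), and it passed against LT-HSC and MPP. Here the MPP arrays lay closer to LT-HSC than to ST-HSC. The condensin subunit Ncaph rose by 1.36, and Mki67, the proliferation antigen that coats mitotic chromosomes, by 1.18. Rad21, a core cohesin subunit present through the whole cycle, had a midpoint difference of 0.35 and did not pass (adjusted p 0.574).

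DNA replication genes showed the same order at a smaller size. All 58 tested members had a positive midpoint difference, with a median of 0.73, and 5 rose, where 0.711% of all genes tested rose. In 30 of the 58, all ST-HSC arrays lay above the other 5, as in 3.56% of all genes tested. The median difference was 0.96 from LT-HSC and 0.47 from MPP. Calls numbered 13 without LT-HSC replicate 3 and 17 without MPP replicate 1, 1 without MPP replicate 2, and 0 without LT-HSC replicate 1, any 1 of the ST-HSC arrays or MPP replicate 3, while the median stayed between 0.62 and 0.80.

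Uhrf1, which guides maintenance methylation onto newly copied DNA, measured 6.94 and 7.29 in LT-HSC, 8.54, 8.58 and 8.58 in ST-HSC, and 8.30, 7.58 and 8.06 in MPP. Its midpoint difference was 1.02 ± 0.18 (SE), and the closest MPP array, replicate 1, lay just below ST-HSC. The Uhrf1 promoter is shown as an example of the E2F type element (TTCCCGC, with TTGGCGC also counted, likewise the forms TTCGCGC and, in the same way, TTGCCGC, on either strand), which is in capitals. It lies at chr17:56303207-56303356 on the plus strand of GRCm38.p6.
Uhrf1: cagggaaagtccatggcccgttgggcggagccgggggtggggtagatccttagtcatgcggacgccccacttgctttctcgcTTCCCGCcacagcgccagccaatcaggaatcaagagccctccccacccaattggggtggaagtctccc

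An E2F type element was found in 59.0% of the 61 promoters of the replication list, against 13.8% of promoters of tested genes and 17.7% of those of the mitotic genes that rose. A CHR was found in 18.0% of the replication promoters. The CCAAT box was found in 54.1% of the replication promoters and in 75.8% of those of the mitotic genes that rose, against 37.0% of promoters of tested genes. Gmnn, the inhibitor of origin licensing that is kept until mitosis ends, rose by 1.15, the GINS helicase subunit Gins1 by 0.90 and the fork protection factor Donson by 0.90. The sliding clamp Pcna and the helicase subunit Mcm6, the brightest members, did not pass, with midpoint differences of 0.29 (95% interval -0.03 to 0.61) and 0.49.

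Calls in the repair, histone and G1 lists covered 11.8%, 8.7% and 9.52% of the genes tested, beside 8.62% of the replication list and 0.711% of all genes. Of 34 tested Fanconi anemia and homologous recombination genes, 4 rose: Brca1 by 1.16, Rad51ap1 by 1.08, the helicase Hells by 0.95 and the helicase Blm by 0.82. Brca1 measured 5.68 and 5.77 in LT-HSC, 7.11, 6.96 and 7.12 in ST-HSC, and 6.44, 5.82 and 5.97 in MPP, with MPP close to LT-HSC in all but replicate 1. The list median was 0.54.

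Of 23 tested histone genes, 2 rose, both linker histones. H1f1 measured 5.71 and 5.91 in LT-HSC, 7.70, 8.03 and 8.10 in ST-HSC, and 6.95, 5.96 and 6.90 in MPP, a midpoint difference of 1.74 ± 0.23 (SE), and H1f5 rose by 1.14. H2ac21, outside the list, rose by 1.78, but core histone genes have near-identical copies whose probes could take up each other's transcripts, so its value is uncertain. H2ac21 kept its call in 5 of the 18 alternatives and lost it when its probe sets were averaged. Of 58 histone entries, 26 matched a named probe set, since many histone probe sets carry several symbols. Among G1 cyclins, kinases, E2F and pocket proteins, 2 of 21 tested genes rose, E2f8 by 1.36 and E2f7 by 1.04, both E2F factors that repress transcription. Cdk6, the kinase that opens G1, had a midpoint difference of 0.61 and did not pass, with ST-HSC at 9.57 to 9.83 and MPP at 9.51 to 9.74 overlapping.

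Genes that rose but were in no list included Pbk, a mitotic kinase, and Parpbp, a repair protein, both chosen after their values were seen. Pbk measured 6.82 and 7.34 in LT-HSC, 9.01, 8.87 and 9.08 in ST-HSC, and 8.27, 7.53 and 8.06 in MPP, a midpoint difference of 1.47. Parpbp rose by 1.49, with ST-HSC at 6.96 to 7.31 above MPP at 5.58 to 6.42. For both genes all ST-HSC arrays lay above the other 5.

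**Figure D2:**
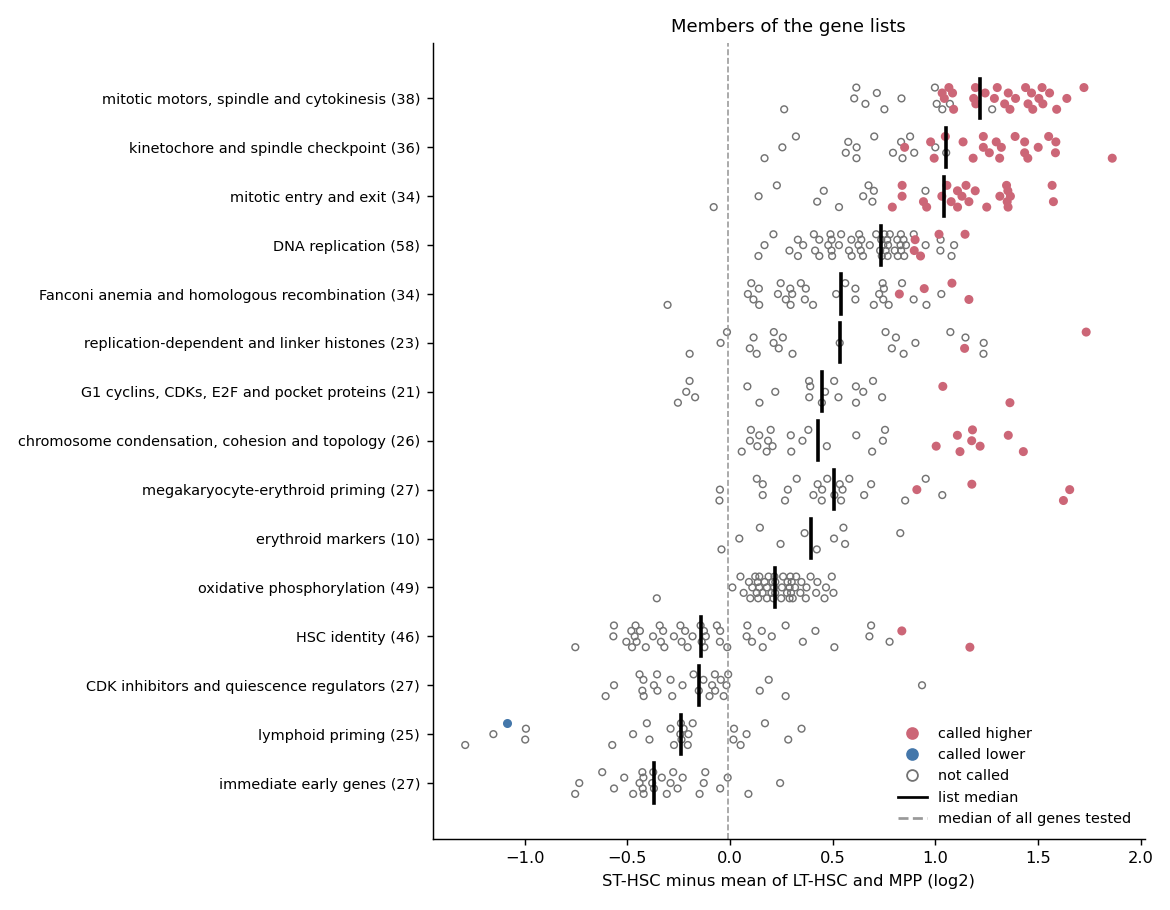
Midpoint difference (x axis, log2) of each tested member of 15 gene lists, with the number tested in parentheses; filled points passed the limma test, open points did not, black lines are list medians and the dashed line is the median of all genes tested, -0.01. The 3 mitotic lists lie furthest to the right with medians of 1.22, 1.05 and 1.04, and the immediate early genes furthest to the left at -0.37.

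Of 27 tested megakaryocyte-erythroid genes, 4 rose (0.711% of all genes tested rose) and 0 fell in limma. At an unadjusted p under 0.05, 14 were higher and 0 lower, against 1012 and 485 of all 17576 genes. The list median was 0.51, with 0.39 from LT-HSC and 0.64 from MPP. In 9 members all ST-HSC arrays lay above the others, as in 3.56% of all genes tested. The 4 are Itga2b, Gp5, Gp9 and Pf4, each a product of megakaryocytes and platelets rather than of red cells. Leaving out ST-HSC replicate 3 gave 0 calls, and leaving out LT-HSC replicate 1, ST-HSC replicate 2 or MPP replicate 2 gave 2.

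Itga2b encodes CD41, the alpha chain of the platelet fibrinogen receptor. It measured 6.48 and 6.30 log2 in LT-HSC, 7.55, 7.52 and 7.64 in ST-HSC, and 6.32, 6.33 and 6.55 in MPP. The ST-HSC arrays lay close together, and the LT-HSC and MPP arrays overlapped. The midpoint difference was 1.18 ± 0.14 (SE), 2.26-fold, with a limma adjusted p of 0.0061, and Itga2b passed against LT-HSC (1.18, adjusted p 0.00814) and MPP (1.17, adjusted p 0.0141).

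Gp5, a subunit of the receptor for von Willebrand factor on platelets, measured 5.48 and 5.95 in LT-HSC, 7.51, 6.76 and 7.20 in ST-HSC, and 5.41, 5.14 and 5.496 in MPP. It rose by 1.62 ± 0.20 (SE), 3.08-fold, and passed against both neighbours. Gp9, from the same receptor, measured 8.67 and 8.28 in LT-HSC, 8.96, 9.24 and 9.596 in ST-HSC, and 8.15, 8.16 and 8.41 in MPP. Its smaller rise of 0.91 passed against the midpoint (limma adjusted p 0.0439) but against neither neighbour alone. Pf4, a chemokine of platelet granules, measured 7.12 and 8.09 in LT-HSC, 9.27, 8.71 and 8.73 in ST-HSC, and 6.59, 6.57 and 7.55 in MPP. It rose by 1.65 ± 0.28 (SE), the largest of the list, with wide spread in LT-HSC and MPP. Pf4 passed against MPP (limma adjusted p 0.034) but not against LT-HSC (adjusted p 0.158).

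The rest of the list did not pass. Gata1, the erythroid and megakaryocyte master factor, had a midpoint difference of 0.85 (adjusted p 0.345), with ST-HSC at 6.87, 5.96 and 5.94 and the nearest other array at 5.87. Tal1, a partner of Gata1, lay at 6.65 to 7.28 in ST-HSC and at 6.11 to 6.59 elsewhere, a difference of 0.51. Vwf, the platelet adhesion protein that marks platelet-biased stem cells, measured 7.20 and 7.22 in LT-HSC, 6.91, 6.27 and 6.20 in ST-HSC, and 5.19 to 5.67 in MPP, highest in LT-HSC. Car1, an erythroid carbonic anhydrase, overlapped between all groups, from 8.83 to 10.97. Gata1, Tal1 and Vwf were chosen after their values were seen.

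Several genes outside the list shared the shape with LT-HSC and MPP both low. Mfsd2b, the sphingosine-1-phosphate exporter of red cells and platelets, measured 6.34 and 6.06 in LT-HSC, 7.43, 7.61 and 7.55 in ST-HSC, and 6.13, 5.38 and 6.01 in MPP. It rose by 1.51 ± 0.18 (SE) and passed against both neighbours. The growth factor Ptn, chosen after its values were seen, measured 5.36 and 5.41 in LT-HSC, 6.42, 6.78 and 6.92 in ST-HSC, and 5.70, 4.98 and 5.29 in MPP. Ptn rose by 1.35 and passed against both neighbours as well.

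The tubulin Tuba8 rose by 1.11 and the cyclic GMP phosphodiesterase Pde5a by 1.27, both chosen after their values were seen. Pde5a lay at 5.80 to 6.62 in ST-HSC and at 4.69 to 5.21 elsewhere. Cavin2, a caveolar coat protein also chosen after its values were seen, rose by 1.31 but is a contrast to MPP alone. It measured 5.77 and 7.06 in LT-HSC, 6.61, 6.69 and 7.07 in ST-HSC, and 4.49 to 4.66 in MPP, so LT-HSC and ST-HSC overlapped.

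**Figure D3:**
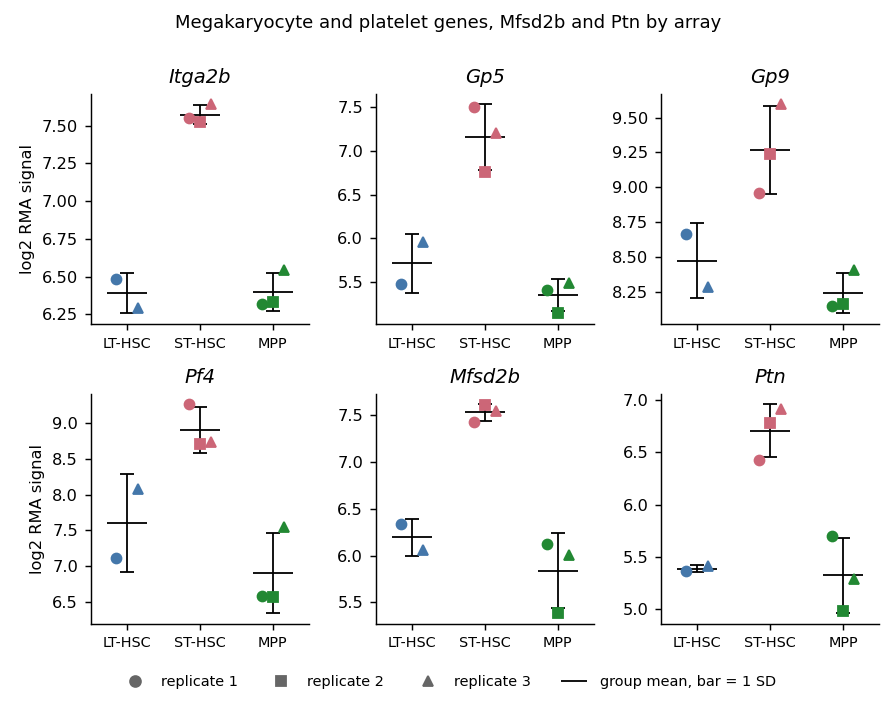
Log2 RMA signal of the 4 megakaryocyte and platelet genes that rose, with Mfsd2b and Ptn, by population on the x axis; points are arrays, their shape gives the replicate number, long lines are group means and bars are 1 SD (n = 2, 3 and 3). The ST-HSC points lie above all others in each panel, and for Itga2b the LT-HSC and MPP arrays share a range from 6.30 to 6.55; the y axes differ between panels and do not start at 0.

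Of 46 stem cell identity genes tested, 2 rose and 0 fell in limma (7 and 6 at an unadjusted p under 0.05). Over all 17576 genes, 0.711% rose and 0.0512% fell, with 1012 higher and 485 lower unadjusted. The midpoint difference was positive in 15 of the 46, with a median of -0.14, where 48.6% of all genes tested were positive. The list level was -0.30 on ST-HSC replicate 1 and 0.12 and 0.15 on the other ST-HSC arrays. Without ST-HSC replicate 1 the median was -0.03, with 21 positive and 1 called, and without LT-HSC replicate 1 it was -0.22. The count called was 0 with any of LT-HSC replicate 1, ST-HSC replicates 2 and 3 or MPP replicates 2 and 3 left out, and 1 with MPP replicate 1 left out. Aldh1a1, a retinaldehyde dehydrogenase, measured 8.40 and 9.14 in LT-HSC, 8.96, 9.48 and 9.76 in ST-HSC, and 7.73, 7.44 and 7.91 in MPP, a midpoint difference of 1.17. Nupr1, a stress-induced chromatin protein, lay at 6.82 and 7.10 in LT-HSC, 6.96 to 7.23 in ST-HSC and 5.48 to 5.71 in MPP, a difference of 0.84. Both passed against MPP alone and overlapped with LT-HSC.

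Other members of that list were lowest in ST-HSC without passing. Procr, the endothelial protein C receptor used to purify stem cells, measured 8.25 and 8.80 in LT-HSC, 7.24, 7.85 and 7.68 in ST-HSC, and 7.96, 8.23 and 8.30 in MPP. Its midpoint difference was -0.75 (adjusted p 0.149). Hlf, a transcription factor of stem cells chosen after its values were seen, lay at 8.39 to 8.88 in ST-HSC and at 9.15 to 9.39 elsewhere, a difference of -0.57 (adjusted p 0.176).

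Calls below the midpoint were fewer: 9 genes fell, which is 0.0512% of those tested, by 1.75-fold to 2.33-fold. In 5 of the 9 all ST-HSC arrays lay below the other 5, a separation that again is tied to the call. Of all tested genes 282 showed it, which is 1.6%. Leaving out a single array gave 23 such genes (LT-HSC replicate 1), 18 (LT-HSC replicate 3), 0 (ST-HSC replicate 2 or ST-HSC replicate 3), 5 (MPP replicate 2) or 3 (MPP replicate 3). In 8 of the 9 the order was ST-HSC, LT-HSC and then MPP, so the wider distance was toward MPP. The full set is P2ry10, Ahnak, Ablim1, Satb1, Il10ra, Sema3d, Olfr65, 4833407H14Rik and A930041C12Rik, of which the last 4 were outside the rule for naming genes, since that rule leaves out olfactory receptors and clone symbols and, for Sema3d, asks for arrays that do not overlap.

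Ahnak, a very large scaffold protein under the cell membrane, measured 6.63 and 7.03 in LT-HSC, 5.97, 6.12 and 5.74 in ST-HSC, and 6.75, 7.04 and 6.88 in MPP. This was an even dip, with differences of -0.89 from LT-HSC and -0.94 from MPP and a midpoint difference of -0.92 ± 0.16 (SE, limma adjusted p 0.0245). Ablim1, an actin-binding protein, measured 5.84 and 5.96 in LT-HSC, 5.10, 5.35 and 5.30 in ST-HSC, and 6.15, 6.29 and 6.21 in MPP, and fell by 0.81. P2ry10, a receptor for lysophospholipids on lymphocytes, measured 4.88 and 5.64 in LT-HSC, 4.403, 4.53 and 4.43 in ST-HSC, and 5.81, 6.47 and 5.81 in MPP. The fall of P2ry10 was 1.19, in a dim range of the array where RMA compresses differences.

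Among the unannotated transcripts, 4833407H14Rik fell by 1.22 and A930041C12Rik by 0.87, both with ST-HSC below all other arrays. Satb1, a chromatin organizer of lymphoid cells, measured 5.26 and 6.06 in LT-HSC, 5.33, 5.17 and 5.18 in ST-HSC, and 7.24, 6.79 and 6.90 in MPP. It fell by 1.09 relative to the midpoint, but ST-HSC overlapped LT-HSC, and the MPP arrays alone lay apart. Il10ra, the interleukin-10 receptor, and the guidance protein Sema3d had the same shape, with midpoint differences of -1.11 and -1.01. The ST-HSC mean of Sema3d, 3.77, lay below the filter of 3.88 log2. Sema3d measured 5.24 to 5.95 in MPP and 3.63 to 4.24 on the other arrays. The mean of those other arrays did not reach the filter, so Sema3d was tested only through MPP. Olfr65, an olfactory receptor, differed in being high only in LT-HSC, at 6.16 and 5.501 against 3.22 to 3.61 on the other arrays. Those other arrays all lay below the filter, so Olfr65 was tested only through LT-HSC. It is not a dip, since its ST-HSC mean of 3.51 lay above the MPP mean of 3.40.

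**Figure D4:**
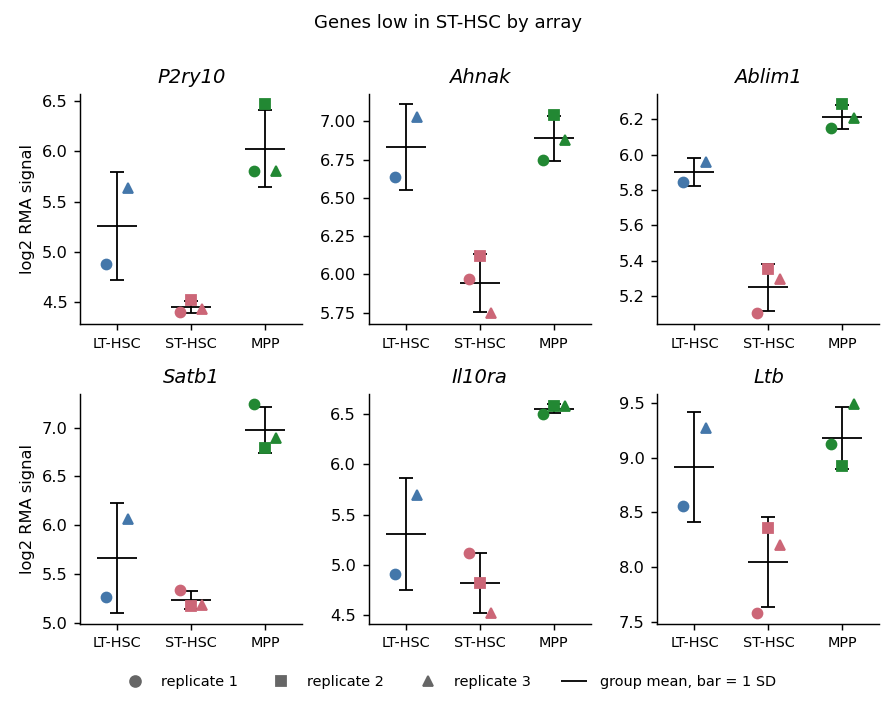
Log2 RMA signal of 6 genes low in ST-HSC, by population on the x axis; points are arrays, their shape gives the replicate number, long lines are group means and bars are 1 SD (n = 2, 3 and 3). Ahnak, Ablim1 and P2ry10 fell with ST-HSC below all other arrays, Satb1 and Il10ra fell with ST-HSC overlapping LT-HSC, and Ltb (-0.998) did not pass; the y axes differ between panels and do not start at 0.

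The genes next in line for a dip did not pass and are given as values. Maf and Tcf7l1, both transcription factors, had midpoint differences of -1.01 and -0.68, and Hk3, a hexokinase of myeloid cells, of -0.66. Hk3 lay at 5.57, 5.55 and 5.62 in ST-HSC against 6.06 to 6.602 elsewhere. Zfp831 measured -0.98, and Csf2rb2, a cytokine receptor chain, -0.76. Thsd1 and Emp1, both membrane proteins, measured -0.63 and -0.76. Cd33, chosen after its values were seen, had -0.84 (adjusted p 0.0645), with ST-HSC at 5.95 to 6.28 just reaching LT-HSC at 6.24 and 6.55.

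Lymphoid priming genes, which come on in MPP, had 1 of 25 tested genes fall, Satb1, and 0 rise in limma, with a median of -0.24. At an unadjusted p under 0.05 the counts were 8 lower and 0 higher. Over all 17576 genes, 0.0512% fell and 485 were lower unadjusted. The list had 3 genes called lower without LT-HSC replicate 1, and 0 with any 1 ST-HSC array or MPP replicate 3 left out. Ltb, a lymphotoxin subunit, measured 8.56 and 9.27 in LT-HSC, 7.58, 8.36 and 8.20 in ST-HSC, and 9.12, 8.93 and 9.49 in MPP, a difference of -0.998 (adjusted p 0.0995). The cytokine receptor Flt3, chosen after its values were seen, had the lowest midpoint difference of the list at -1.29 and did not pass, with LT-HSC at 5.84 and 8.49 on either side of ST-HSC at 6.86 to 7.19. Sox4, at -0.47, did not pass either.

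The remaining lists had few calls. Inhibitors of cyclin-dependent kinases and quiescence regulators had 0 of 27 genes called in limma (1 higher and 1 lower at an unadjusted p under 0.05) and a median of -0.15. The list level was -0.52 on ST-HSC replicate 1 and 0.12 and 0.11 on the other ST-HSC arrays, and the median without that array was 0.01, with 16 of 27 positive in place of 4. The largest difference was that of Cdkn2c, the inhibitor p18, chosen after its values were seen, at 5.35 and 6.03 in LT-HSC, 6.77, 6.86 and 7.48 in ST-HSC, and 6.61, 6.24 and 6.69 in MPP, with a difference of 0.94 (adjusted p 0.103). Oxidative phosphorylation genes had a positive difference in 48 of 49, where 48.6% of all genes tested were positive, with a median of 0.22 and 0 called by limma. At an unadjusted p under 0.05, 10 were higher and 0 lower, against 1012 and 485 of all 17576 genes. The list was lowest on LT-HSC replicate 1, at -0.39, where ubiquitous control genes, positive in 9 of 11, were also lowest, at -0.37. Without that array the median was 0.13 for oxidative phosphorylation and 0.03 for the control genes, and the part of that array in the result was not tested further. Cytochrome c, encoded by Cycs and chosen after its values were seen, lay at 9.85 to 10.25 in ST-HSC and at 9.19 to 9.83 elsewhere. Ribosome biogenesis genes and MYC targets had a positive difference in 37 of 40, with a median of 0.25 and 0 called by limma (5 higher at an unadjusted p under 0.05). This list too was lowest on LT-HSC replicate 1, at -0.36, and the part of that array was not tested.

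Chd7, the gene the series was designed around, did not pass. It measured 5.66 and 5.81 in LT-HSC, 5.16, 5.20 and 5.18 in ST-HSC, and 5.02, 4.95 and 4.99 in MPP, so the 3 populations did not overlap and ST-HSC lay between the others. The midpoint difference was -0.18 (95% interval -0.46 to 0.10, limma adjusted p 0.80). Of the 10 members of the CHD family, 0 passed in limma, also 0 at an unadjusted p under 0.05, with a median of -0.13.

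Several lists of markers of other cells and of handling differed between arrays of the same population. Granulocyte and monocyte markers, 23 of 25 tested and 0 called by limma (0 at an unadjusted p under 0.05), had mean levels relative to the 8-array mean of 0.61, 0.99 and 0.55 on replicate 1 of each population, in the order LT-HSC, ST-HSC, MPP, and of -0.70 to -0.22 on the others. Erythroid markers, 10 of 20 tested and 0 called (2 higher unadjusted), reached 0.88 on ST-HSC replicate 1 and lay between -0.54 and 0.34 elsewhere. Stroma and endothelium markers, 25 of 29 tested and 0 called (1 higher and 2 lower unadjusted), reached 0.98 on ST-HSC replicate 1 and at most 0.18 on the others. B cell and T and NK cell markers stayed between -0.20 and 0.28 on all arrays.

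The mitotic lists together measured 0.66, 0.54 and 0.68 on the ST-HSC arrays, -0.94 and -0.55 in LT-HSC and 0.17, -0.39 and -0.17 in MPP, so ST-HSC replicate 1 did not lead them. The megakaryocyte-erythroid list measured 0.66, 0.14 and 0.33 on the ST-HSC arrays and at most 0.00 on the others, highest on the array with high erythroid markers, whose part in the result was not tested. Without ST-HSC replicate 1 its median was 0.45 and 3 members were called. The median of the erythroid markers changed from 0.39 to -0.01 without that array.

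Immediate early genes, which respond quickly to handling of cells, had 0 of 27 called in limma (0 higher and 1 lower at an unadjusted p under 0.05) and a median of -0.37. Their level was -0.95 on ST-HSC replicate 1 and between -0.41 and 0.44 on the others. The median without that array was 0.01. Egr1 measured 9.77 on ST-HSC replicate 1 and 10.77 to 11.30 on the other arrays, and Nr4a1 measured 9.62 there and 10.53 to 11.83 elsewhere. Dusp5, chosen after its values were seen, had the lowest difference of the list at -0.75, and Sik1, a salt-inducible kinase outside the list, had -0.80.

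**Figure D5:**
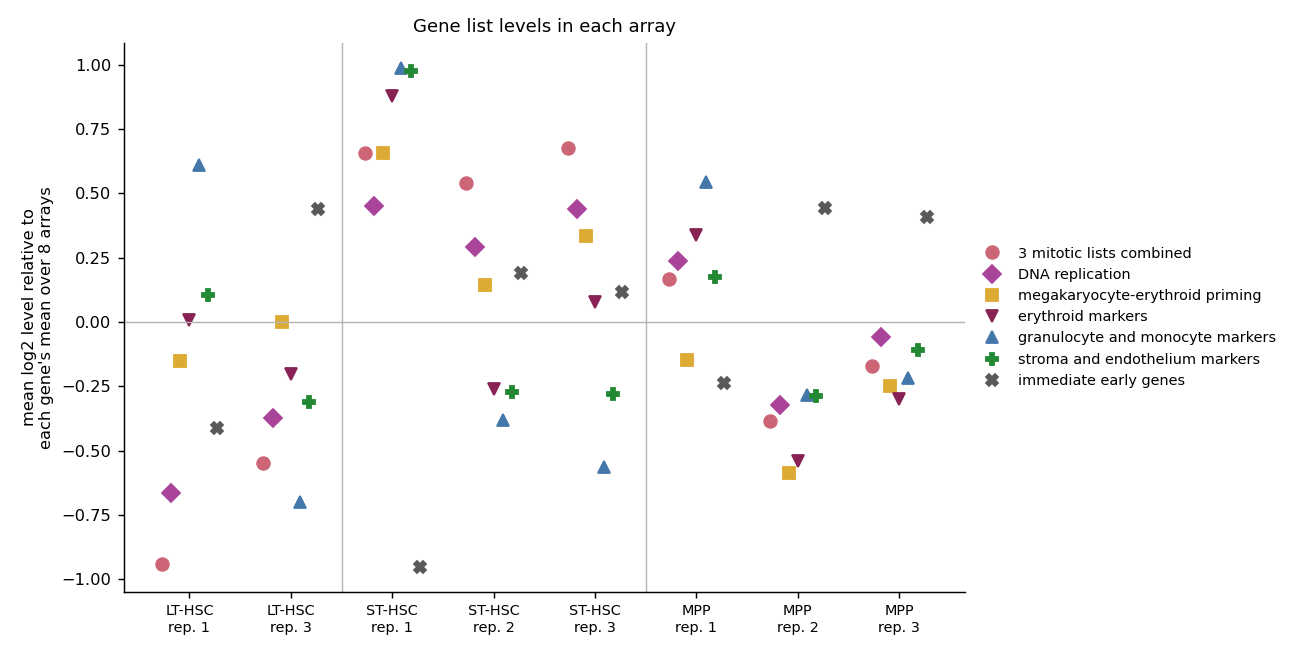
Mean log2 level of 7 gene lists on each array (y axis), after subtracting each gene's mean over the 8 arrays; each symbol is a list and vertical lines separate the populations. The mitotic lists lie between 0.54 and 0.68 on all 3 ST-HSC arrays, whereas the granulocyte, erythroid and stroma markers are high and the immediate early genes low on ST-HSC replicate 1. The granulocyte markers are also high on replicate 1 of LT-HSC and of MPP.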

How the data were processed

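The authors deposited log2 signals per probe set, made with RMA per the submitters' processing notes; its version was not given in the sources used here, and log2 was inferred from their range. Per the labels' protocols, total RNA was extracted with Trizol, amplified (Ovation Pico WTA System V2) and labelled with biotin. RMA compresses differences of dim probe sets, and amplification can add spread between arrays. Of 33649 probe sets, 23521 had 1 symbol; 1814 with several and 8314 unnamed were left out. Genes were tested where their mean reached 3.88 log2. A limma 3.58.1 fit under R 4.3.3 used 1 mean per population and a shared spread over 8 arrays, with Benjamini-Hochberg adjustment over 17576 genes; it was tested on simulated data. Positions come from the RefSeq promoter table only. The number of arrays limits the precision, and no probe backgrounds were analysed here.

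The comparison, members and lists were chosen with earlier results of these data known. Of 1245 entries in 39 lists, 1111 matched, 27 by synonym. Genes were named by a rule: per direction, the 15 largest called differences without overlap, filled up by smallest p; the 10 smallest p of the stricter test per direction; per list, up to 4 called and the 2 brightest uncalled members; the gate genes and Chd7. The first 2 parts left out segments of antigen receptor loci, vomeronasal or olfactory receptors, small RNAs, and symbols of clones or predicted genes. Other names are stated as chosen after their values were seen. Alternatives changed normalization, filter, probe set choice, weights, block and arrays left out.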

Additional observations from a re-analysis of the deposited data

How the results depend on the processing

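Each result was recomputed under 17 alternatives and 1 more, leaving out all replicate 1 arrays, that was chosen after seeing the data; the causes of changes were not tested. Genes called higher (125) moved to 68 with median centring, 320 with the replicate block and 30 with the replicate 1 arrays of LT-HSC and ST-HSC both left out (the pair), and to 5 to 202 when single arrays were left out. Genes called lower (9) moved to 18 with quantile normalization, 1 with median centring, 21 with array weights, 68 with the block, 14 without the pair and 32 without all replicate 1 arrays, and to 0 to 23 without single arrays. The stricter test called 28 genes with array weights and 37 with the block, against 0. The 3 mitotic lists (70 called) had 46 with median centring, 15 without that pair and 3 to 78 without single arrays. The replication list (5) had 0 with median centring or without that pair, 10 with a filter at the 50th percentile, 11 with weights, 34 with the block, 3 with a plain mean of the other 5 arrays, 3 without all replicate 1 arrays and 0 to 17 without single arrays. The megakaryocyte-erythroid list (4) had 2 with median centring, 8 with the block and 0 to 3 without single arrays.

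Replicate numbers were not taken to pair the arrays: correlations of deviations for the same number ran from -0.159 (LT-HSC and MPP, replicate 1) to 0.536 (LT-HSC and ST-HSC, replicate 1). All same-number pairs between these extremes were positive, from 0.099 to 0.475. Pairs with different numbers ran from -0.536 to 0.318. The 2 LT-HSC arrays deviate from their mean by equal and opposite amounts. Each correlation with either of them therefore recurs with the opposite sign for the other, and the LT-HSC values are not separate evidence. A shared effect of the replicate number was not tested. With the replicate block all 134 called genes stayed called, but the labels do not say what the replicate numbers mark.

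The signs of 5 uncalled genes turned. When single arrays were left out, Egr1 ranged from -0.67 to 0.0078, Kit from -0.27 to 0.018, Cd34 from -0.64 to 0.21, Cd48 from -0.17 to 0.32 and Vwf from -0.066 to 0.29. Kit was at 0.021 without the pair and 0.048 without all replicate 1 arrays. Cd48 was at -0.046 with weights, -0.35 without the pair and -0.18 without all replicate 1 arrays. Vwf was at -0.0607, -0.069 and -0.087 under the same changes. Of 59 named called genes, 55 lost the call without ST-HSC replicate 3. For 9 of these it was the only alternative in which the call was lost.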
